A study of Rattus norvegicus with 11 samples.

Results

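Ptgs1, Ptgs2, Ptges and Ptgis, which encode enzymes of prostaglandin synthesis, were followed in REF52, an established line of rat embryo fibroblasts. Their probe sets were taken by platform gene symbol, which gave 5 of the 15866 probe sets tested and 4 of the 10411 genes measured. The genes were chosen by their signals on these same 11 arrays, so their levels and differences are given as a description and carry no test. All cells had been grown with 10% serum and then deprived of serum (0.25%) for 48 hours before adenovirus infection. The virus was either a control virus (CMV in the labels) or one expressing E2F1, a transcription factor that drives cell cycle genes. After infection the cells stayed in deprivation medium or received serum, and part of the cells in serum also received LY294002, which blocks phosphoinositide 3-kinase (PI3K). There are 2 arrays for each virus in each medium, but only 1 for control virus in deprivation medium. Separate cultures are not stated for the arrays of a group, so the spread and the p-values measure differences between these arrays, which may be technical.

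Prostaglandin synthesis starts when phospholipase A2 frees arachidonate from membranes. Cyclooxygenase then turns arachidonate into prostaglandin H2, and this intermediate is passed to terminal synthases that set which prostaglandin is made. Ptgs1 encodes cyclooxygenase 1, usually described as the constitutive form, and Ptgs2 encodes cyclooxygenase 2, the form induced by mitogens and cytokines in fibroblasts. Ptges encodes the inducible microsomal prostaglandin E synthase, and Ptgis encodes prostacyclin synthase, known best from vessel walls.

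Values are array signals on a linear scale, on which the array medians ran from 172 to 207. Of 15 fibroblast markers, some were bright on all 11 arrays, such as Col1a2 at 15341 to 22086, Fn1 at 11731 to 17077 and Vim at 12197 to 17099. Thy1 (36.0 to 124), Dcn (9.57 to 183) and Lum (3.94 to 147) lay below those medians. Other fibroblast markers moved: Col3a1 ran from 593 to 16711, Postn from 408 to 11266, Sparc from 4953 to 19744 and Col1a1 from 5084 to 19402. The second arrays with LY294002 held the lowest signals of Col3a1 (1705 with control virus and 593 with E2F1) and of Postn (408 and 754). Both these arrays stand apart in these markers, and differences with LY294002 in Ptgs1, Ptgs2 and the brighter Ptges probe set are also given without them. Over 6 measured endothelial markers the summed signal was 290.0 to 326 on the deprived arrays and 274 to 409 on the arrays in serum. Over 8 leukocyte and macrophage markers it was 683 to 818 and 529 to 780, and over 7 epithelial markers 479 to 720 and 207 to 608. RNA quality was read from the GAPDH and beta-actin controls, as the log2 signal of their 3' probe sets less that of their 5' probe sets. This 3' to 5' difference was 0.51 to 0.76 in deprivation medium, and 0.90 for the second array of E2F1 cells given LY294002. It was 0.12 to 0.33 on the other 7 arrays. In bulk RNA, fewer cells of a type and less RNA per cell cannot be told apart.

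The 2 cyclooxygenase genes moved in opposite directions when serum was withheld. All 3 deprived arrays lay below all 8 arrays in serum for Ptgs1 and above all 8 for Ptgs2, whichever virus the cells had received. Ptges and Ptgis did not separate the media in this way. These were 2 of the 5 probe sets, and 5.62% of all probe sets separated the same arrays.

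Because these 2 genes carry the difference between the media, the 250 bases before their RefSeq start sites are shown on the gene's strand (RefSeq, assembly GRCr8). The window of Ptgs1 is chr3:39981169-39981418 (plus strand) and that of Ptgs2 is chr13:64713813-64714062 (plus strand). Capitals mark matches to any of 9 motifs searched on both strands.
Ptgs1: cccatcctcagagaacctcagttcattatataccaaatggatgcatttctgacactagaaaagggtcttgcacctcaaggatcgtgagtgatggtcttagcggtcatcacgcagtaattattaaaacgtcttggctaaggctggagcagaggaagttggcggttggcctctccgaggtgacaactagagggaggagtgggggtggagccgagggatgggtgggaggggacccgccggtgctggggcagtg
Ptgs2: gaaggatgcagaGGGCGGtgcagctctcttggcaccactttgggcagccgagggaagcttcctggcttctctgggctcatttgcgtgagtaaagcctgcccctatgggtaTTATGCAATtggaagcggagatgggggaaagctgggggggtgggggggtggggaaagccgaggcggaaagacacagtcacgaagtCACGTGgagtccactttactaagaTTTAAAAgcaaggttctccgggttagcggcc
In the Ptgs2 window the capitals are, from the left, a GC box (GGGCGG), a C/EBP motif (TTNNGCAAT), an E-box (CACGTG) and a TATA-like box (TTTAAAA), the last beginning 31 bases before the start. Among 33469 rat promoter windows of this length, 30.5% hold the GC box, 2.04% the C/EBP motif, 5.59% the E-box and 8.24% the TATA-like box. No letters are in capitals in the Ptgs1 window, which says only that none of the 9 motifs occurs in it. The other motifs were an E2F motif (TTTNNCGC, in 4.11% of windows), the CRE core (TGACG, 18.2%), an NF-kB motif (GGGNN followed directly by TTTCC, 1.30%), an Egr1 motif (GCGGGGGCG, 2.45%) and the TATA box (TATAAA, 12.9%). None of these 5 was found in either window. The Ptges window on the same assembly holds a GC box and an Egr1 motif, which overlap no other match. RefSeq windows were matched for 3 of the 4 genes, Ptgs1, Ptgs2 and Ptges. A match of letters is a description of the sequence and not evidence of binding.

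Ptgs1 was the brightest of the 5 probe sets against the array as a whole, with a mean above 81.3% of all probe sets. In serum its signals were 922 and 1119 on the control virus arrays and 1679 and 1415 on the E2F1 arrays. With LY294002 they were 932 and 1025 with control virus and 2670 and 1302 with E2F1. In deprivation medium they were 241 on the control virus array and 298 and 241 on the E2F1 arrays. The low arrays are thus the 3 deprived ones, and the highest is the first E2F1 array with LY294002, which stands well above its partner.

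Against serum, Ptgs1 in deprivation medium was 4.01-fold lower in control virus cells (log2 difference -2.00 ± 0.39, SE) and 5.48-fold lower in E2F1 cells (-2.46 ± 0.32). The difference of these 2 effects was small against its error (-0.45 ± 0.51). With each array centred on its median the differences were -2.04 and -2.35. The 3' to 5' difference was also higher on the deprived arrays, as given above. With it added to the fit as a covariate, an alternative added after seeing the data, the differences were -1.09 ± 0.39 in control virus cells and -1.94 ± 0.27 in E2F1 cells. The array with the largest 3' to 5' difference, the second E2F1 array with LY294002, had a Ptgs1 signal of 1302. That is the lowest of the 4 E2F1 arrays in serum (up to 2670), above the 4 control virus arrays there (922 to 1119). The part of RNA quality in the deprivation values of Ptgs1 was not tested beyond this.

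Ptgs1 also followed the virus while serum was present. The 4 E2F1 arrays in serum, with or without LY294002, ran from 1302 to 2670 and the 4 matching control virus arrays from 922 to 1119, so they did not overlap. Of the 5 member probe sets 2 separated these arrays, Ptgs1 and Ptgis, against 16.5% of all probe sets. The E2F1 effect on Ptgs1 was 1.51-fold in serum (0.59 ± 0.32) and 1.89-fold with LY294002 (0.92 ± 0.32). The last value rests on the bright first E2F1 array with LY294002: without it the difference was 0.41 ± 0.23, and without the second array 1.43 ± 0.23. With the 3' to 5' covariate it was 1.39 ± 0.26, and without both second arrays with LY294002 1.503 ± 0.26. In deprivation medium the arrays overlapped and the difference was 0.14 ± 0.39. LY294002 against none gave -0.05 ± 0.32 for Ptgs1 with control virus (-0.12 ± 0.23 without both second arrays) and 0.27 ± 0.32 with E2F1. The value in E2F1 cells depends on which array is used: it was -0.24 ± 0.23 without the first array, 0.79 ± 0.23 without the second and 0.86 ± 0.28 with the 3' to 5' covariate.

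Ordered by mean signal, Ptgs1 was highest in E2F1 cells with LY294002 (1986 ± 967, SD, n = 2) and next in E2F1 cells in serum (1547 ± 187, n = 2). These neighbours overlap. Control virus cells followed in serum (1020.4 ± 139, n = 2) and with LY294002 (978 ± 65.7, n = 2), and they overlap as well. Deprived E2F1 cells (269 ± 39.9, n = 2) and the deprived control virus array (241) came last and cannot be ordered.

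**Figure D1:**
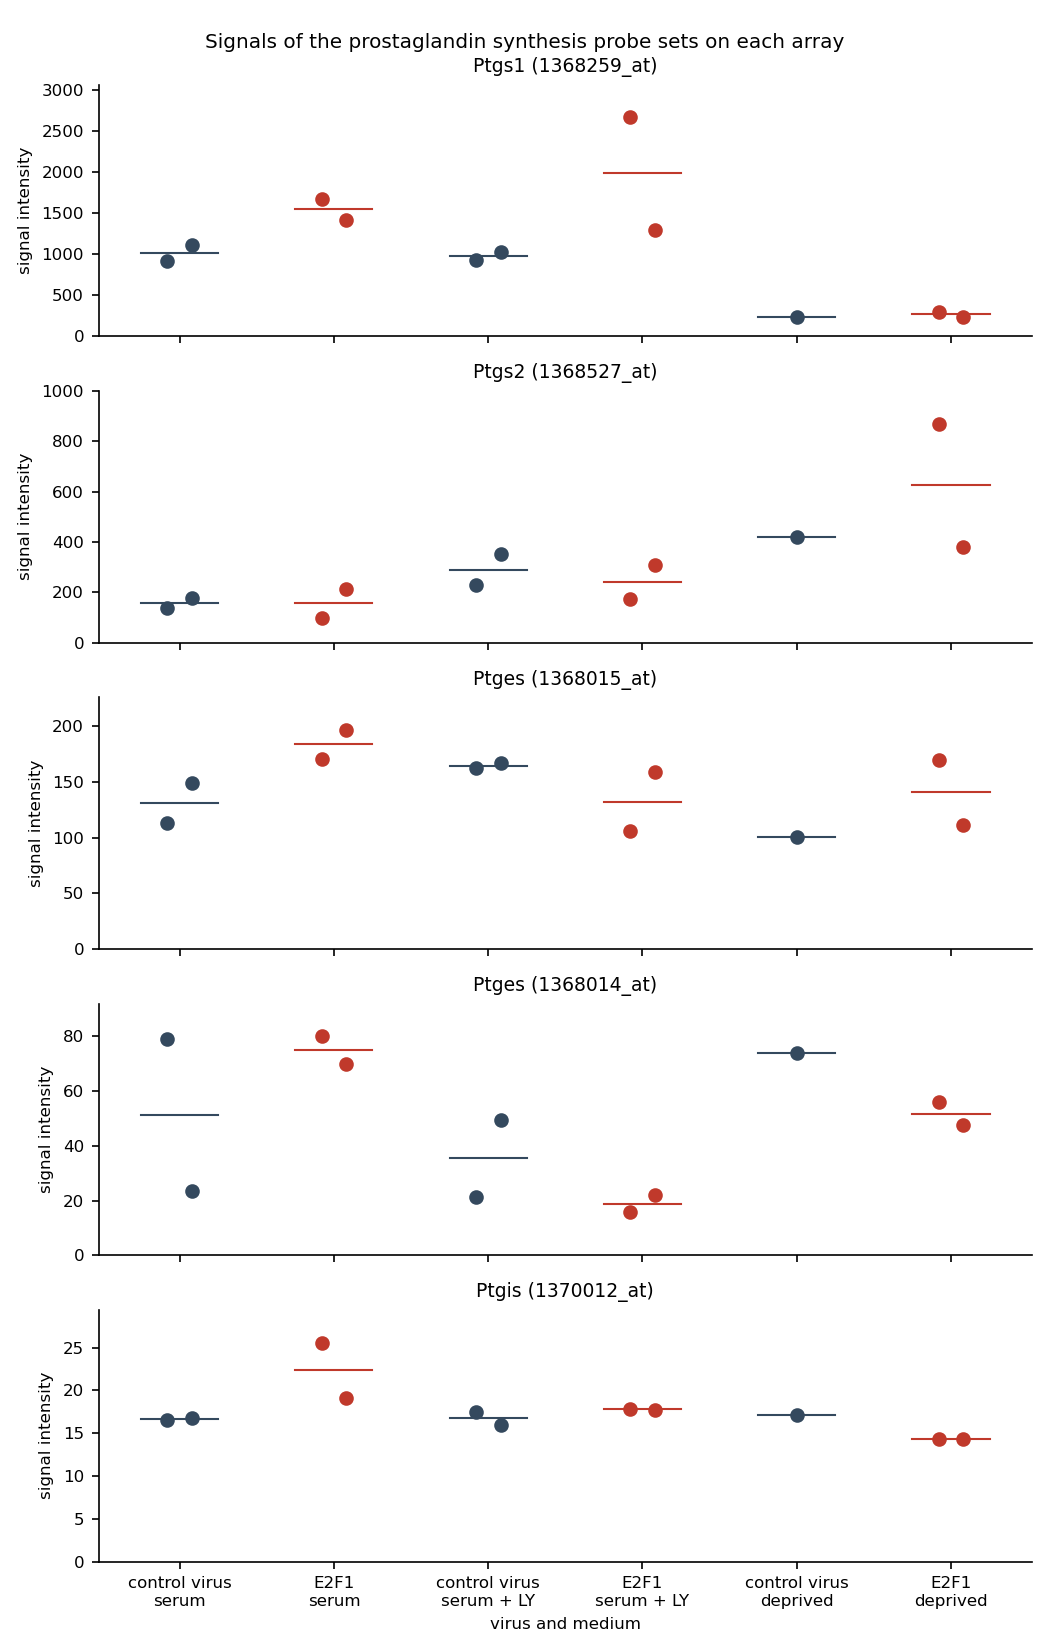
Signal intensity (linear scale, from 0) of the 5 probe sets on each of the 11 arrays, by virus and medium; points are arrays and lines are group means. Ptgs1 is lowest on the 3 deprived arrays (241 to 298) and Ptgs2 is highest there (382 to 870), while Ptgis stays between 14.3 and 25.6 throughout.

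Ptgs2 was highest, not lowest, in deprivation medium. In serum its signals were 139 and 177 on the control virus arrays and 99.7 and 214 on the E2F1 arrays. With LY294002 they were 230.2 and 351 with control virus and 173 and 308 with E2F1. In deprivation medium they were 418 on the control virus array and 870 and 382 on the E2F1 arrays. The first deprived E2F1 array is far above the others, and the second lies only a little above the brightest array in serum (351).

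Against serum, Ptgs2 in deprivation medium was 2.50-fold higher in control virus cells (1.32 ± 0.59) and 3.64-fold higher in E2F1 cells (1.86 ± 0.48). The arrays compared did not overlap in either background, as for 79.4% of all probe sets in control virus cells and 60.1% in E2F1 cells. The difference of the 2 effects was 0.54 ± 0.76. With each array centred on its median the differences were 1.29 and 1.97. With the same covariate they were 0.42 ± 0.82 in control virus cells and 1.36 ± 0.56 in E2F1 cells, so in control virus cells the value fell within its error. The second E2F1 array with LY294002, with the largest 3' to 5' difference, had a Ptgs2 signal of 308, the second highest of the 8 arrays in serum. The part of RNA quality in the deprivation values of Ptgs2 was not tested beyond this.

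With LY294002, Ptgs2 lay between its levels in serum and in deprivation. The 4 arrays with LY294002 (173 to 351) and the 4 without (99.7 to 214) overlapped. In control virus cells the difference was 0.79 ± 0.48, with both treated arrays above both untreated ones, and 0.51 ± 0.59 without both second arrays with LY294002. Arrays did not overlap in this comparison for 37.5% of all probe sets. In E2F1 cells it was 0.60 ± 0.48 with overlapping arrays. Among these is the array with the largest 3' to 5' difference, and the value was 0.03 ± 0.59 with that covariate and 0.21 ± 0.59 without both second arrays with LY294002. None of the 5 member probe sets (0 of 5) separated the 4 arrays with LY294002 from the 4 without, against 3.57% of all probe sets.

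E2F1 left no common direction in Ptgs2. The difference from control virus was -0.09 ± 0.48 in serum, -0.28 ± 0.48 with LY294002 and 0.45 ± 0.59 in deprivation, with overlapping arrays in all 3. With the 3' to 5' covariate the value with LY294002 was -0.74 ± 0.55, and without both second arrays with LY294002 it was -0.38 ± 0.68. Averaged over the media it was 0.03 ± 0.30. The mean signals ran from 626 ± 345 (SD, n = 2) in deprived E2F1 cells and 418 on the deprived control virus array to 290.4 ± 85.1 (n = 2) and 241 ± 95.2 (n = 2) with LY294002 in control virus and E2F1 cells. In serum they were 158 ± 26.9 (n = 2) with control virus and 157 ± 81.0 (n = 2) with E2F1. The arrays of the 2 deprived groups overlap, as do those of the 2 groups with LY294002 and those of the 2 groups in serum alone. The deprived control virus array lies above both control virus arrays with LY294002 (230.2 and 351), while E2F1 cells with LY294002 overlap with those in serum.

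**Figure D2:**
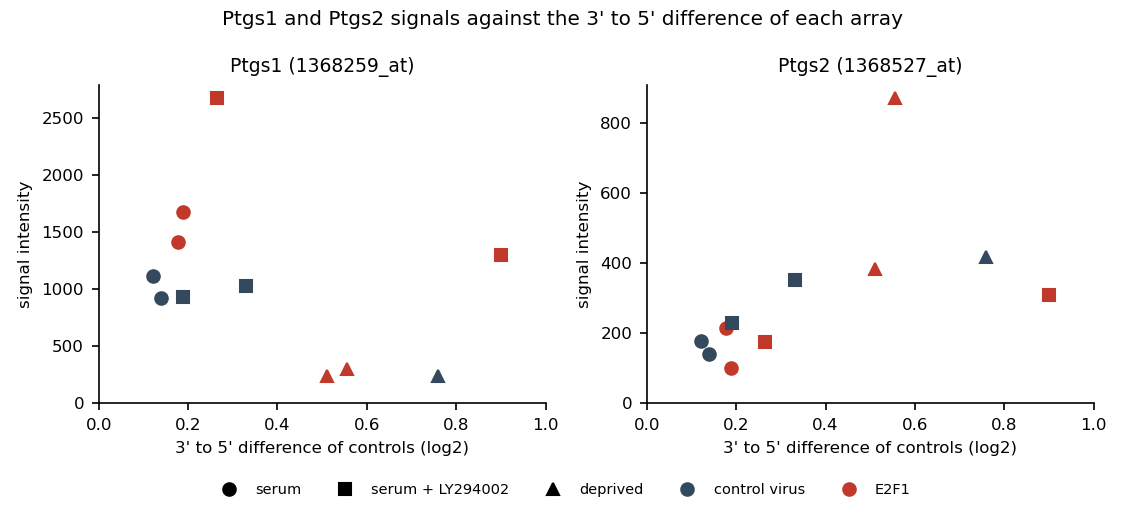
Signals of Ptgs1 and Ptgs2 (linear scale) against the 3' to 5' difference of control probe sets (log2 scale) on each of the 11 arrays; symbols give the medium and colours the virus. The 3 deprived arrays (0.51 to 0.76) have Ptgs1 signals of 241 to 298, while the E2F1 array with LY294002 at 0.90 has a Ptgs1 signal of 1302 and a Ptgs2 signal of 308.

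Ptges, which takes prostaglandin H2 to prostaglandin E2, is read by 2 probe sets made from the same accession, and they are both dim. The brighter has a mean above 44.4% of all probe sets. Its signals were 113 and 149 on the control virus arrays in serum, 171 and 197 on the E2F1 arrays in serum, 162 and 167 on the control virus arrays with LY294002 and 106 and 159 on the E2F1 arrays with LY294002. In deprivation medium they were 100.7 with control virus and 170.2 and 112 with E2F1. The whole range is less than 2-fold, and no medium or virus stands apart on all of its arrays.

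By this probe set E2F1 went with higher signals in serum (0.45 ± 0.26) and deprivation (0.40 ± 0.32) and lower ones with LY294002 (-0.31 ± 0.26). LY294002 went with higher signals in control virus cells (0.31 ± 0.26) and lower ones in E2F1 cells (-0.45 ± 0.26). In each of these 5 comparisons the arrays did not overlap. The same held, in the order given, for 54.9%, 83.8%, 44.1%, 37.5% and 43.7% of all probe sets. Without both second arrays with LY294002, the E2F1 difference with LY294002 was -0.55 ± 0.34, and that of LY294002 was 0.29 ± 0.29 in control virus and -0.71 ± 0.29 in E2F1 cells. Averaged over the media the E2F1 difference was 0.18 ± 0.16.

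The dimmer Ptges probe set has a mean above 23.0% of all probe sets. Its signals were 79.0 and 23.4 with control virus and 79.9 and 69.7 with E2F1 in serum, and 21.4 and 49.5 with control virus and 15.7 and 22.1 with E2F1 under LY294002. In deprivation medium they were 73.9 with control virus and 55.8 and 47.5 with E2F1. The arrays of control virus cells in serum differ 3.38-fold between themselves, more than most differences between groups. Its largest difference was that of LY294002 in E2F1 cells (-1.38 ± 0.42, arrays not overlapping), where the treated arrays lie near the offset of 16 added before taking logarithms, so no fold is given. Arrays did not overlap there for 43.7% of all probe sets. The other probe set gave the same direction there. The 2 probe sets differed in direction for LY294002 in control virus cells (-0.30 ± 0.42 and 0.31 ± 0.26), for E2F1 in deprivation (-0.41 ± 0.51 and 0.40 ± 0.32) for deprivation in control virus cells (0.56 ± 0.51 and -0.32 ± 0.32) and for E2F1 averaged over the media (-0.12 ± 0.26 and 0.18 ± 0.16). Over the 8 arrays in serum their log2 values had a Pearson correlation of 0.29.

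Ptgis was dim on every array, with a mean above only 11.7% of all probe sets. Signals were 16.5 and 16.8 on the control virus arrays in serum, 25.6 and 19.1 on the E2F1 arrays in serum, 17.5 and 15.96 on the control virus arrays with LY294002 and 17.8 and 17.7 on the E2F1 arrays with LY294002. In deprivation medium they were 17.1 with control virus and 14.34 and 14.33 with E2F1. No detection calls were used, so whether Ptgis was expressed is not known. Its log2 differences lay between -0.33 ± 0.16 (deprivation in E2F1 cells) and 0.23 ± 0.16 (E2F1 in serum), and no fold is given this near the offset. Of 6 measured markers of endothelial cells, in which Ptgis is best known, Pecam1 (5.70 to 32.6) and Kdr (5.19 to 42.7) were dimmest. Tie1 ran from 11.9 to 54.0, Vwf from 11.5 to 83.8, Cldn5 from 53.4 to 122 and Esam from 62.2 to 162.

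Small groups separate often on these arrays, so the counts of members without overlap are given with the share of all probe sets. For E2F1 against control virus, 3 of 5 member probe sets did not overlap in serum (54.9% of all), 3 with LY294002 (44.1%) and 3 in deprivation (83.8%). Over all media, 6 E2F1 against 5 control virus arrays, 0 of 5 did not overlap (9.64%). For LY294002 it was 2 of 5 in control virus cells (37.5%) and 3 of 5 in E2F1 cells (43.7%). For deprivation it was 4 of 5 in control virus cells (79.4%) and 5 of 5 in E2F1 cells (60.1%). These comparisons share control arrays, and nothing is read from the counts.

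**Figure D3:**
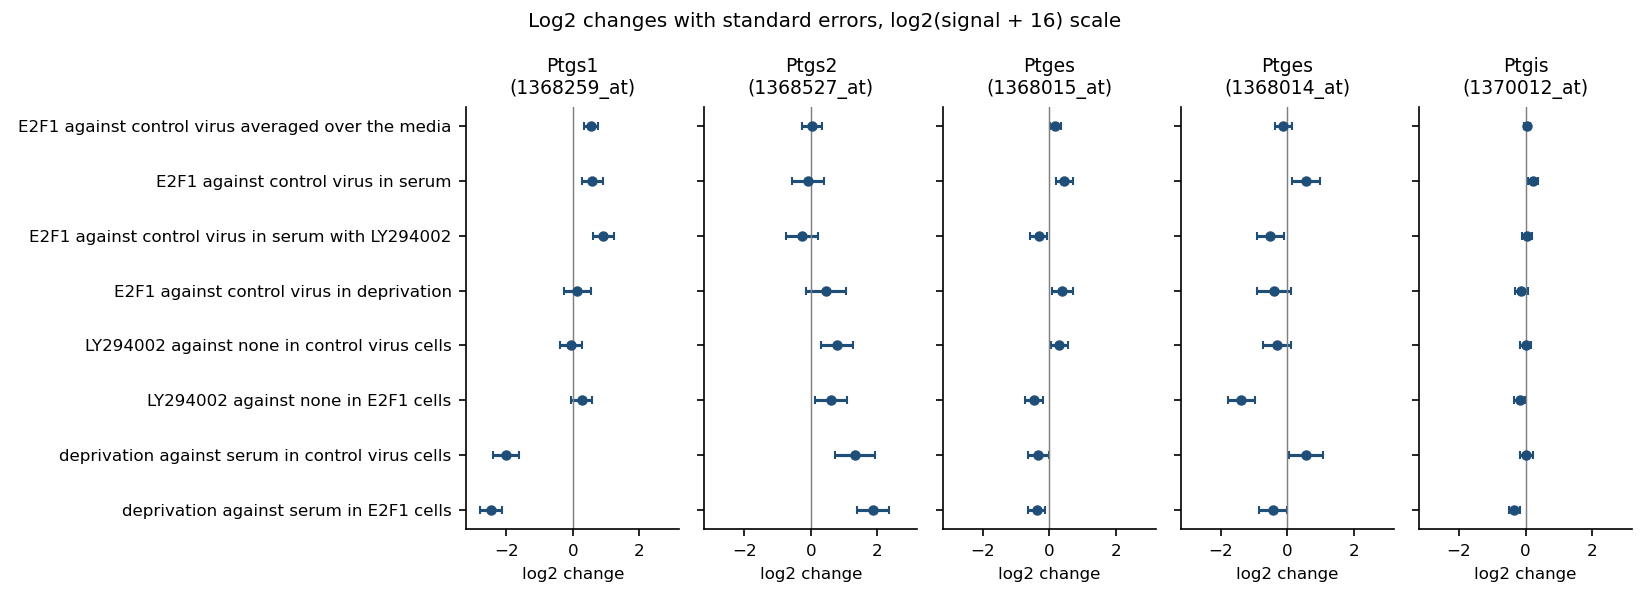
Log2 differences of the 5 probe sets in 8 comparisons on the log2(signal + 16) scale; points are differences of group means and bars are standard errors from the fit over 11 arrays. Ptgs1 falls to -2.00 and -2.46 in the deprivation comparisons, Ptgs2 rises to 1.32 and 1.86 in the same comparisons, and the Ptgis points lie within 0.33 of 0.

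Genes whose pattern over the 11 arrays was most like that of a member were taken from 9329 brighter probe sets with 1 symbol, by Pearson correlation of log2 values. The points share the arrays and fall into deprived arrays and arrays in serum, so the value over the 8 arrays in serum is given as well. These 8 are among the 11 arrays used to pick the genes, so they are no independent check. The highest of 9329 correlations over so few arrays are high by selection, and the values only describe. Ptgs1 was followed most closely by Thoc6, a subunit of the mRNA export complex THO (0.98 over 11 arrays, 0.88 over 8), by Selenoh, a nuclear selenoprotein (0.97 and 0.77), and by Ankrd13c (0.96 and 0.83). Thoc6 had signals of 369 to 411 on the deprived arrays and 501 to 684 in serum. Ptgs2 was followed by Lclat1, an acyltransferase that remodels cardiolipin (0.91 and 0.87), Slc12a4, a potassium chloride cotransporter (0.90 and 0.76), and Atn1 (0.90 and 0.75). Lclat1 had signals of 445 to 466 on the deprived arrays and 294 to 405 in serum. For the brighter Ptges probe set they were Msn, which encodes moesin (0.89 and 0.95), Ubap1 (0.87 and 0.83) and Ahcyl2 (0.87 and 0.91). For the dimmer one they were Gbf1 (0.85 and 0.95), Serpinb3 (0.84 and 0.89) and Wdr43 (0.84 and 0.85). Ptgis, near the floor, was nearest to LOC102547830 (0.90 and 0.90), Ubash3b (0.89 and 0.92) and Tchp (0.89 and 0.87).

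The steps around the 4 enzymes were read from 7 lists of genes that do not include them, with 86 of 99 entries measured. These genes were tested with limma over all 15866 probe sets with Benjamini-Hochberg adjustment and a threshold of 0.05. Averaged over the media, 10 of the 86 rose with E2F1 and 7 fell. That is 19.8%, against 16.5% of all probe sets, and the median log2 change was 0.01 against -0.04 for all probe sets. When the second array of control virus cells in serum was left out, the count was 11 in place of 17. Of the 17 genes, 11 were called under every alternative run, and Mgll, Atf3, Nr3c1, Elavl1, Egfr and Tgfbr1 were not.

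Among genes of arachidonate release and return to membranes, 1 of 13 rose and 1 fell (median -0.03). That is 15.4%, against 16.5% of all probe sets. Acsl4, the ligase that activates arachidonate for return to membranes, rose 1.51-fold (0.59 ± 0.11, limma adjusted p = 0.0098). Its signals were 1165 to 1778 over 6 E2F1 arrays and 619 to 1268 over 5 control virus arrays, which overlap. Mgll, the monoacylglycerol lipase, fell (-1.27 ± 0.34, limma adjusted p = 0.0405), with signals of 18.2 to 150 against 159 to 254. The E2F1 and control virus arrays of Mgll did not overlap, and its call was lost in 11 of 19 alternatives, with adjusted p from 0.00865 to 0.106. Of its other 3 probe sets all had the same sign. The cytosolic phospholipase A2 gene Pla2g4a, which frees arachidonate, had signals of 408 to 678 over all arrays and was not called in any comparison.

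Among the other prostanoid synthases 1 of 7 rose and 1 fell (28.6%, against 16.5% of all probe sets, median 0.16). Ptges3, the cytosolic prostaglandin E synthase and Hsp90 co-chaperone p23, rose 1.52-fold (0.60 ± 0.10, limma adjusted p = 0.0076). Its signals were 4457 to 5048 on the E2F1 arrays and 2860 to 3596 on the control virus arrays. Cbr1, a carbonyl reductase that can convert prostaglandin E2 to prostaglandin F2 alpha, fell 1.56-fold (-0.64 ± 0.09, limma adjusted p = 0.0042), with signals of 580 to 828 against 974 to 1125. The arrays of the 2 viruses did not overlap for either gene. Cbr1 was the only gene of the 5 lists of synthesis, turnover and receptor genes called in a single medium, in deprivation (-0.93 ± 0.18, limma adjusted p = 0.0434), a call lost in 10 of 20 alternatives (adjusted p 0.0183 to 0.186). Ptges2, the membrane-bound prostaglandin E synthase 2, had signals of 746 to 1020 and was not called.

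For breakdown and transport (0 of 4), prostanoid receptors (0 of 7) and the lipoxygenase branch (0 of 7), limma called none in the average. The share of all probe sets called was 16.5%. In these lists 2, 2 and 1 genes had an unadjusted p under 0.05, as had 30.8% of all probe sets. The medians were 0.51, -0.06 and 0.01. All 4 breakdown and transport genes had positive values in the average, but only 2 of 4 did in deprivation. The prostaglandin transporter gene Slco2a1 stood at 0.70 in serum and -0.70 in deprivation. Hpgd, the prostaglandin dehydrogenase, stood at 0.62 ± 0.20 (limma adjusted p = 0.078) with signals of 2.31 to 38.0, near the offset, and its second probe set was at -0.02. Ptgr1, which encodes the next enzyme of breakdown, stood at 0.54 ± 0.22 (limma adjusted p = 0.145). The thromboxane receptor gene Tbxa2r stood at 0.98 ± 0.28 (limma adjusted p = 0.0518), and Ptgfrn, which binds the receptor for prostaglandin F2 alpha, at -0.80 ± 0.29 (limma adjusted p = 0.106). Of the prostaglandin E2 receptor genes, Ptger2 (5.06 to 20.4) and Ptger4 (8.16 to 17.9) were dim on every array.

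Factors known to act on the Ptgs2 promoter or mRNA included 7 that rose with E2F1 and 2 that fell among 31 (average over the media, median 0.01). These calls are 29.0% of the list, against 16.5% of all probe sets, and the difference in shares was not tested. Zfp36, whose product tristetraprolin speeds the decay of AU-rich mRNAs including that of Ptgs2, fell 2.27-fold (-1.18 ± 0.15, limma adjusted p = 0.00276), and Junb, an AP-1 subunit, fell 1.57-fold (-0.65 ± 0.11, limma adjusted p = 0.0076). Hnrnpd, which encodes the AU-rich binding protein AUF1, rose 1.74-fold (0.80 ± 0.11, limma adjusted p = 0.00365). Nfkbia, the inhibitor of NF-kB, rose 1.72-fold (0.78 ± 0.11, limma adjusted p = 0.00359) and the AP-1 subunit Fosl1 rose 1.77-fold (0.82 ± 0.14, limma adjusted p = 0.00681). Atf3 rose as well (1.51 ± 0.42, limma adjusted p = 0.0465), but with signals of 3.24 to 43.2 on control virus arrays no fold is given, and its call was lost in 12 of 18 alternatives (adjusted p 0.00625 to 0.119).

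Among inducers of Ptgs2 and their receptors 1 of 17 rose and 3 fell (23.5%, against 16.5% of all probe sets, median -0.09). The platelet-derived growth factor receptor gene Pdgfrb, also on the list of fibroblast markers, fell 3.73-fold (-1.90 ± 0.36, limma adjusted p = 0.0109), the tumour necrosis factor receptor gene Tnfrsf1a 1.51-fold (-0.60 ± 0.11, limma adjusted p = 0.0111) and Egfr 1.42-fold (-0.51 ± 0.14, limma adjusted p = 0.0428). Tgfbr1, a receptor for transforming growth factor beta, rose 1.71-fold (0.77 ± 0.17, limma adjusted p = 0.0188), while its second probe set was at 0.01. The call of Tgfbr1 was lost without the first deprived E2F1, second control virus or first E2F1 array in serum, and that of Egfr in 10 of 19 alternatives. The cytokine genes Il1b (45.3 to 121) and Tnf (6.77 to 49.4) were dim on every array and were not called.

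**Figure D4:**
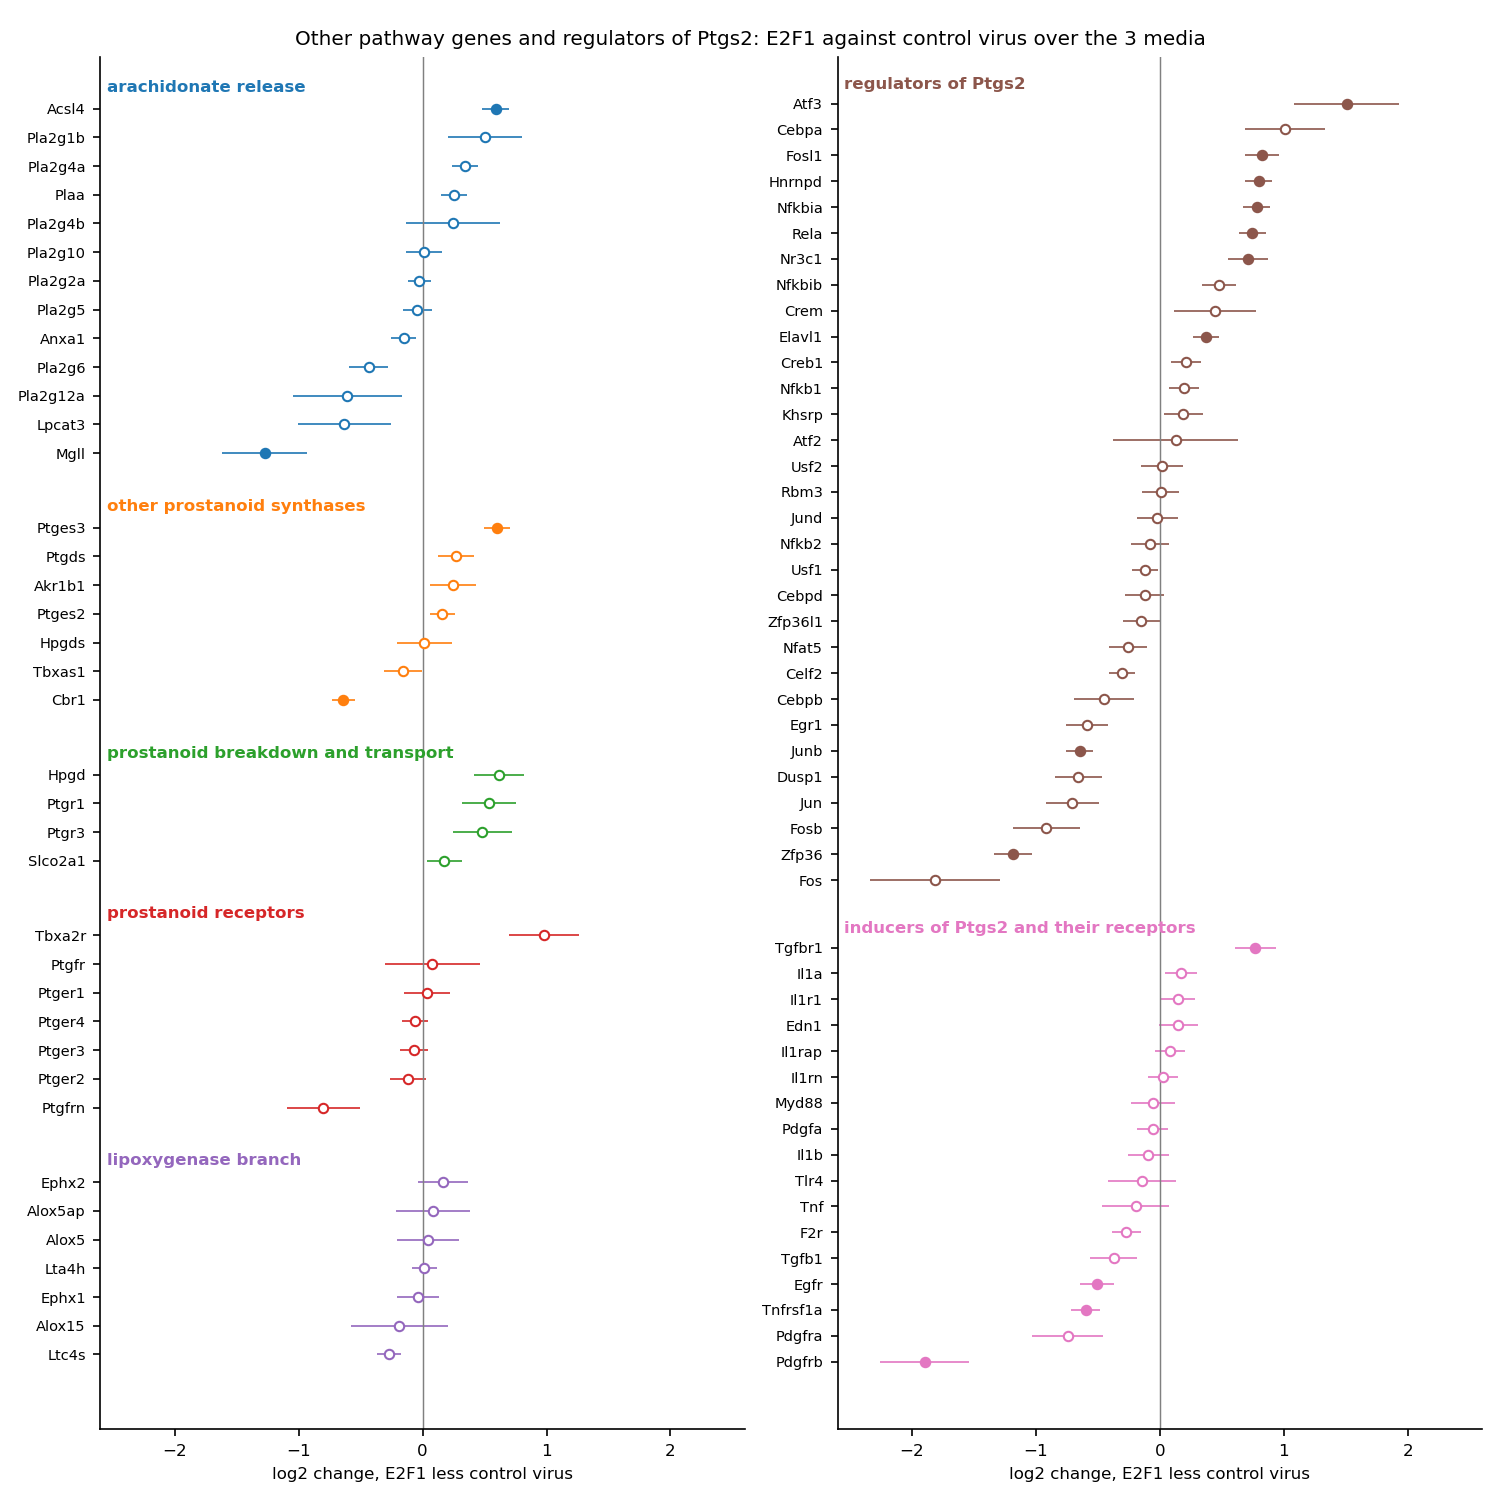
Log2 change with E2F1 against control virus, averaged over the 3 media, for 86 genes around prostaglandin synthesis in 7 lists; points are fitted differences, bars standard errors, and filled points have an adjusted p under 0.05 by limma. Filled points are 10 to the right of 0 and 7 to the left, with Pdgfrb (-1.90) lowest and Atf3 (1.51) highest among them.

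In single media fewer of these genes were called. In serum 0 of 86 passed limma (0.353% of all probe sets), with 17 (19.8%) at an unadjusted p under 0.05 against 15.5% of all. With LY294002 present 4 of 86 passed (4.65%, against 5.41% of all probe sets): Nfkbia (0.93 ± 0.17, limma adjusted p = 0.0271), Rela (0.84 ± 0.17, limma adjusted p = 0.0364) and Hnrnpd (0.77 ± 0.18, limma adjusted p = 0.0491) rose and Zfp36 fell (-1.54 ± 0.24, limma adjusted p = 0.0182). In deprivation 3 of 86 passed (3.49%, against 2.87%), with Fosl1 higher (1.84 ± 0.27, limma adjusted p = 0.0241) and Junb (-1.09 ± 0.22, limma adjusted p = 0.0462) and Cbr1 lower. None of these 7 calls was made under every alternative, and leaving out 1 array moved the counts between 1 and 8 with LY294002 and between 0 and 7 in deprivation.

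In the comparisons between media, none of the 86 genes passed the threshold in the main fit. Some passed for deprivation and LY294002 under alternatives, as given below. Recovery in these comparisons was not simulated, so a lack of calls does not show a lack of change. With LY294002 against none, limma called 0 of 86 in either background and 0 of all 15866 probe sets (0% called), while 10 and 15 of the 86 had an unadjusted p under 0.05 with control virus (11.6%, against 6.62% of all) and E2F1 (17.4%, against 11.2%). In deprivation against serum it called 0 of 86 with control virus (0.24% of all) and 0 with E2F1 (0.233% of all), with 22 (25.6%, against 14.0% of all) and 29 (33.7%, against 19.6%) at an unadjusted p under 0.05. With the smallest p in the list of Ptgs2 regulators, Zfp36 stood at 1.78 ± 0.30 and Junb at 1.31 ± 0.22 in control virus cells (limma adjusted p = 0.0796 for both). In E2F1 cells these were Rela (0.88 ± 0.17, limma adjusted p = 0.0855) and Cebpd, which encodes a C/EBP factor (1.22 ± 0.26, limma adjusted p = 0.091). Il1r1, the interleukin 1 receptor gene among the inducers, stood at -1.10 ± 0.22 in E2F1 cells (limma adjusted p = 0.0862). Its second probe set differed from it in sign for the E2F1 average (-0.10 against 0.15). In control virus cells the inducers of smallest p went the other way, Pdgfra at 2.41, with signals down to 13.7, and Egfr at 1.13. Of these genes Cebpd had signals of 282 to 435 on the 3 deprived arrays and 111 to 202 on the 8 arrays in serum. Its other probe sets, opposite in sign for the E2F1 average (0.11 and 0.56 against -0.12), were not read by medium. Other list genes separated these arrays too. Among them, Fosb (337 to 1453 against 73.4 to 246) and Egfr (165 to 321 against 72.7 to 151) were higher in deprivation. Lta4h (663 to 862 against 951 to 1443) and Pdgfa (1412 to 1598 against 1639 to 3195) were lower. As given above, 5.62% of all probe sets separated these arrays. Cebpb and Cebpa, the other C/EBP genes among the Ptgs2 regulators, overlapped. Cebpb ran from 779 to 1279 on deprived arrays and 535 to 1618 in serum, Cebpa from 11.1 to 36.5 and 4.73 to 92.1. Lta4h, of leukotriene synthesis, stood at -1.04 ± 0.20 in control virus cells (limma adjusted p = 0.105) and Ltc4s at -0.76 ± 0.15 in E2F1 cells (limma adjusted p = 0.0855). The tests of whether the E2F1 effect differed from that in serum called 0 of 86 with LY294002 and 0 of 86 in deprivation, and 0% of all probe sets. At an unadjusted p under 0.05 were 11 (12.8%, against 6.29% of all) and 13 (15.1%, against 9.72%).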

How the data were processed

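Biotin-labelled cRNA from 6 µg of total RNA was hybridised to 1 Affymetrix array per sample, per the labels' protocols. Each deposited table gives, per probe set, the authors' signal intensity without logarithm. MAS5 and RMA are named in the submitters' processing notes, with neither versions nor roles. On each array the signals averaged 500.0 once the top and bottom 2% were set aside.

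Of 15923 probe sets 57 controls were left out. Of the 15866 tested, 12783 have 1 gene symbol in the platform annotation, 312 several and 2771 none, and only those with 1 were named (12748 found in RefSeq, GRCr8). Signals were used as log2(signal + 16) without further scaling. With limma 3.58.1 (R 4.3.3), 1 mean per group was fitted over the 11 arrays (5 residual degrees of freedom, prior 2.88), with Benjamini-Hochberg adjustment over all probe sets in each of 10 comparisons. For the lone array of deprived control virus cells the spread of the remaining groups was assumed. The number of arrays limits the precision.

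The members, gene lists and tests were chosen with earlier results of these data known, and the motifs with the promoters in view. A gene is represented by its brightest probe set. List genes named are, per list and comparison, up to 4 called genes per direction, and failing any call up to 2 of smallest p. Genes named outside this rule, chosen after their values were seen, are Nr3c1, Elavl1, Pla2g4a, Ptges2, Ptger2, Ptger4, Il1b, Tnf, Cebpb, Cebpa and Fosb. Tested on simulated data over 15866 probe sets, the fit called 100% of 4-fold changes for the E2F1 average. It called 89% in serum, 89% with LY294002 and 62% in deprivation. For 2-fold changes the shares were 72%, 21%, 20% and 4%. Only a small part of the simulated probe sets changed, with normal noise from the fit's own variances, so recovery in these data may differ. Alternatives were quantile normalization, median centring, offsets of 1 and 64, leaving out the dimmest 30%, a replicate block, the compared groups alone, the mean of a gene's probe sets and leaving out each array. A covariate for the 3' to 5' difference and leaving out both second arrays with LY294002 were added after seeing the data.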

Additional observations from a re-analysis of the deposited data

Results flagged for a closer look

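The brighter Ptges probe set moved in opposite directions in different settings, with every array of the compared groups apart, and these differences were not tested. E2F1 went with higher signals in serum (0.45) and lower ones with LY294002 (-0.31), a difference of 0.76 on the log2 scale. The effect with LY294002 less that in deprivation (0.40) was -0.71. LY294002 went with higher signals in control virus cells (0.31) and lower ones in E2F1 cells (-0.45), the same difference of 0.76 from the same 8 arrays. The dimmer Ptges probe set did not turn in the last 2 of these: E2F1 gave -0.51 with LY294002 and -0.41 in deprivation, and LY294002 gave -0.30 in control virus and -1.38 in E2F1 cells. It did differ in sign between serum (0.57) and LY294002.

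Ptgis did likewise at signals of 14.3 to 25.6, near the offset, and this too was not tested. The E2F1 effect in serum (0.23) less that in deprivation (-0.13) was 0.35, and that with LY294002 (0.05) less that in deprivation was 0.17. Deprivation against serum was 0.02 in control virus cells and -0.33 in E2F1 cells, again a difference of 0.35. Groups of 1 or 2 arrays separate often, in 37.5% to 83.8% of all probe sets for these comparisons.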

How the results depend on the processing

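The count of 17 list genes called for E2F1 over the media was 11 to 19 when single arrays were left out. The count of 4 with LY294002 was 8 with offset 64 and 10 without the dimmest 30% of probe sets, 2 with array medians centred and with offset 1, 1 with the 3' to 5' covariate, 0 in the compared groups alone and 0 without both second arrays with LY294002, and 1 to 8 without single arrays. The count of 3 in deprivation was 10 with the 3' to 5' covariate, 8 with offset 64 and without both second arrays with LY294002, 7 without the dimmest 30%, 5 with the mean of a gene's probe sets, 1 with array medians centred and with offset 1, 0 in the compared groups alone and 0 to 7 without single arrays. Counts of 0 became 2 for deprivation in control virus cells without both second arrays with LY294002, and 1 with offset 64 and without the dimmest 30%. For deprivation in E2F1 cells 0 became 9 without both second arrays with LY294002, 1 with offset 64 and 0 to 2 without single arrays. For LY294002 in E2F1 cells it became 0 to 5. The cause was not tested, other than fewer samples or probe sets.

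Under a replicate block the count in deprivation was 1 in place of 3, and no other count moved by over 1.5 times. Same-numbered arrays share only a number: the differences of second and first arrays correlated between -0.02 and 0.30 over 10 pairs of groups, and 1 pair was above 0.1.

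Of 955 member values under the alternatives, 884 lay within 1 residual SD of the reported value and 44 changed sign, 18 of them for Ptgs2. Many alternatives leave out only arrays or probe sets outside a comparison, which cannot move its value. The residual SD is also wider for noisier probe sets (0.58 for Ptgs2, 0.08 for Ptgis), so these counts are no measure of stability. The E2F1 average of Ptgs2 ran from -0.16 to 0.22 without single arrays. No sign changed for deprivation against serum in Ptgs1 or Ptgs2. Probe sets near the offset, Ptgis and the dimmer Ptges one, are limited by signal over background.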

Other observations

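Ptgs2os, an antisense RNA at the Ptgs2 locus that has its own probe set in the annotation, was looked at after its values were seen. Its signals were 121 to 172 on the 3 deprived arrays and 90.0 to 164 on the 8 arrays in serum, which overlap.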
